A study of Adonis amurensis with 6 samples.

Results

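The circadian clock and light receptor genes of Adonis amurensis were represented by 312 of the 190353 unigenes, the assembled transcript sequences, of the deposited table. They were chosen by name alone, whatever their level. A unigene was taken if its best match in Swiss-Prot carried a name with Protein LHY, CCA1, APRR, two-component response regulator-like, GIGANTEA, EARLY FLOWERING 3 or 4, ADAGIO, REVEILLE or CONSTANS-LIKE, or was a phytochrome A, B, C or E, a cryptochrome or a phototropin. The study sequenced floral organs of this early-flowering perennial, grown in an open field without a treatment, at 6 stages with 1 library each. FBD is the bud at differentiation, YA the young closed bud (alabastrum) and VCA the bud with visible color. EFS, FBS and SFS are flowers at early flowering, at full bloom and at senescence. Neither the genotype nor the number of plants in a library is known from the sources used here.

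In plants, the clock is a loop of proteins that repress each other over the day. The MYB factors LHY and CCA1 are made around dawn, the pseudo-response regulators (PRR) follow in a fixed order through the day, and the evening complex with ELF3 and ELF4 acts at dusk, as worked out in Arabidopsis. GIGANTEA and the ADAGIO F-box proteins, which sense blue light, set the timing of protein turnover and join the clock to CONSTANS, the factor that reads day length for flowering. Phytochromes perceive red and far-red light, cryptochromes and phototropins blue light. The methods of the study state that the stages were sampled simultaneously, but neither they nor the labels give an hour. Whether all stages were taken at the same hour of the day is therefore not known here. If the hours differed, hour and stage cannot be told apart in any value below, and this was not tested.

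Levels are FPKM, fragment numbers that the authors divided by unigene length and by the mapped reads of the library. With 1 library a stage there is no replicate, so the spread between plants is unknown and no difference was tested. A unigene or a sum was called higher or lower when the later stage differed 2-fold or more from the earlier one, as a ratio of FPKM + 0.1, where either library reached an FPKM of 1. This ratio understates differences between low values. The FPKM of a library summed to between 724656 and 755345, and the read number behind it is unknown. Actin summed to 639 FPKM in SFS and to between 963 and 1403 FPKM in the other libraries. The chlorophyll a-b binding proteins and the small Rubisco subunits, which mark green tissue, summed to 17314 FPKM in SFS, 5336 FPKM in FBS and between 5563 and 12878 FPKM elsewhere. Their part in the values below was not tested. The floral homeotic names AGAMOUS, GLOBOSA and SEPALLATA were found in all 6 libraries, together at 191 to 452 FPKM, whereas no unigene matched the names PISTILLATA, APETALA 3 or DEFICIENS as searched in Swiss-Prot. The paper reports a MADS-box factor homologous to PISTILLATA, so a missing name does not show that such a gene is absent.

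The 312 unigenes fell into 136 sequences or sequence clusters. Contigs with the same CL number form 1 cluster, and the program RSEM divides reads among them, so a single contig is less certain than the sum of its cluster. By name, 43 unigenes were morning MYB factors (LHY, CCA1 and REVEILLE), 55 pseudo-response regulators, 9 GIGANTEA, 10 ELF3 or ELF4, 5 ADAGIO, 51 CONSTANS-LIKE factors, 31 phytochromes, 57 cryptochromes and 42 phototropins. The other 9 matched the words of the search but belong to none of these roles. The best match in Nr, another protein database, also carried a name of the role for 239 unigenes. It did so for every phytochrome, GIGANTEA and ADAGIO unigene, for 42 morning MYB factors and for 50 pseudo-response regulators. It did so for only 18 of the 42 phototropin unigenes, 39 of the 57 cryptochromes and 37 of the 51 CONSTANS-LIKE factors. Names are those of the best matches in other species, and no A. amurensis gene has been shown here to be the ortholog.

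From YA to SFS, 181 of the 312 unigenes reached an FPKM of 1 in at least 1 stage. Of these, 67 (37.0%) were listed at 0 in at least 1 of the 5 libraries, against 62.5% of all unigenes that reached 1. An FPKM of at least 1 in all 5 stages was found for 58 (32.0%), against 18.9% of all. Together the 312 unigenes held 1152 FPKM at YA, 1084 FPKM at VCA, 1248 FPKM at EFS, 1632 FPKM at FBS and 1451 FPKM at SFS. The sum was highest in FBS as deposited, with a log2 ratio of SFS to FBS of -0.17. The median ratio and the actin sum, 2 scalings used below, add 0.18 and 0.59 to this ratio, so that SFS was the highest stage under both.

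Between VCA and YA, 38 of the 136 unigenes that passed the filter were 2-fold or more higher in VCA (27.9%) and 39 were lower (28.7%). Of all unigenes, 30.0% were higher and 31.8% lower. Between EFS and VCA, 54 of 144 were higher in EFS (37.5%) and 34 lower (23.6%), with 28.0% higher and 38.3% lower among all unigenes. Between FBS and EFS, 59 of 154 were higher in FBS (38.3%) and 40 lower (25.97%), where the shares of all unigenes were 33.0% and 32.5%. Between SFS and FBS, 30 of 148 were higher in SFS (20.3%) and 50 lower (33.8%), with 29.1% higher and 35.8% lower among all. With this filter the shares thus lay near the background in VCA against YA. In EFS against VCA and in FBS against EFS the higher share was above that of all unigenes and the lower share below it, and in SFS against FBS the higher share was below that of all unigenes. These differences in share were not tested.

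Over the whole span, 65 of 152 unigenes were 2-fold or more higher in SFS than in YA (42.8%) and 45 were lower (29.6%). Among all unigenes 29.1% were higher and 46.8% lower. The median log2 ratio of SFS to YA was 0.49 for the clock and light receptor unigenes and -0.78 for all. Scaling the libraries by their median ratio moved these medians to 1.02 and -0.09, and scaling by their actin sum to 1.48 and 0.60, so that the clock and light receptor unigenes were above all unigenes under each of these scalings. Of the unigenes that were called, 59.1% were higher in SFS, which became 70.1% with the median ratio and 74.8% with the actin sum. Among all called unigenes these shares were 38.3%, 48.5% and 58.5%. The actin sum also moved the higher share from 59.6% to 70.9% in FBS against EFS (all unigenes 50.4% to 66.0%). In SFS against FBS it moved from 37.5% to 52.6% (all 44.8% to 59.4%). In EFS against VCA it moved down, from 61.4% to 51.9% (all 42.2% to 36.5%).

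**Figure D1:**
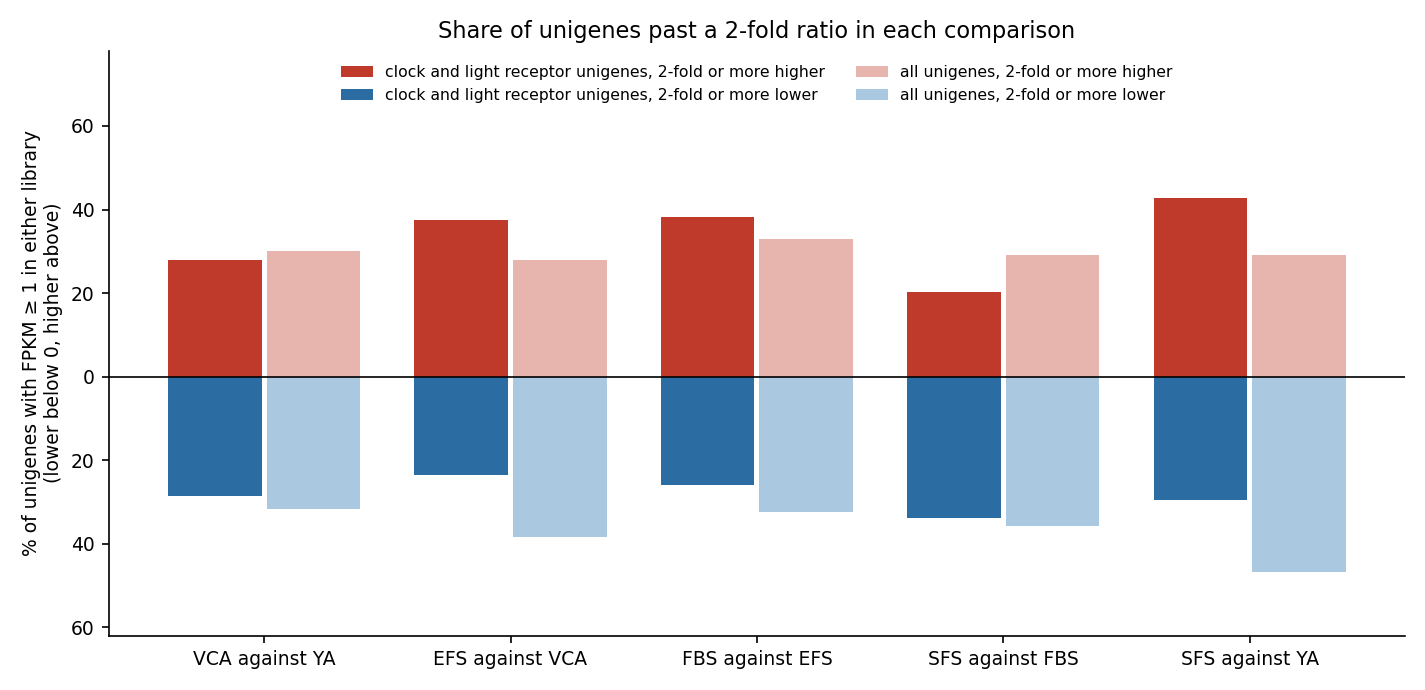
Percent of unigenes 2-fold or more higher (above 0) or lower (below 0) in the later stage of each comparison, for the clock and light receptor unigenes (dark bars, left) and for all unigenes (pale bars, right), among those that reached an FPKM of 1 in either library. In SFS against YA, 42.8% of the clock and light receptor unigenes were higher, against 29.1% of all.

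When all contigs of each cluster were summed first, with or without a name of the search, a smaller share of the clock and light receptor clusters differed. In SFS against YA, 22 of 64 clusters were higher (34.4%) and 17 lower (26.6%), with 26.7% and 47.5% among all clusters. In EFS against VCA, 18 of 62 were higher (29.0%) and 7 lower (11.3%), and the shares of all clusters were 26.1% and 37.6%. In VCA against YA, 8 of 61 clusters were higher (13.1%) and 12 lower (19.7%; all clusters 27.4% and 30.5%). In FBS against EFS, 14 of 65 were higher (21.5%) and 15 lower (23.1%), with 31.3% and 30.5% among all clusters. Here the higher share was below that of all clusters, whereas for single unigenes it was above that of all unigenes. In SFS against FBS, 8 of 63 were higher (12.7%) and 14 lower (22.2%), with 26.8% and 34.4% among all clusters. Of 56 clusters that reached 5 FPKM, the highest stage was YA for 11, VCA for 9, EFS for 8, FBS for 16 (28.6%) and SFS for 12. Among all clusters at this level, FBS was the highest stage for 16.1% and YA for 26.9%. These highest stages were counted on the FPKM as deposited. They were not counted again under the scalings that made SFS the highest stage of the total. The highest stage was under 2-fold above the lowest in 13 of the 56 (23.2%), against 17.4% of all.

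The 9 roles differed in course. Pseudo-response regulators summed to 131 FPKM at YA, 94.3 FPKM at VCA, 140.4 FPKM at EFS, 215 FPKM at FBS and 206 FPKM at SFS. Morning MYB factors ran alongside, at 122, 97.8, 145, 207 and 202 FPKM from YA to SFS. Both were thus lowest in VCA and highest in the last 2 stages. Cryptochromes summed to 138 FPKM at YA, 156 at VCA, 175 at EFS, 303 at FBS and 302 at SFS, and the log2 ratio of SFS to YA was 1.13. The only ADAGIO unigene of these stages stood at 9.71, 12.6, 19.4, 29.6 and 24.8 FPKM from YA to SFS (log2 ratio of SFS to YA 1.35). These were the roles whose sums were 2-fold or more higher in SFS than in YA. The log2 ratio was 0.73 for morning MYB factors, 0.65 for pseudo-response regulators, 0.31 for phototropins, 0.18 for GIGANTEA and 0.13 for phytochromes. It was -0.39 for ELF3 and ELF4 and -0.08 for CONSTANS-LIKE factors, which became 0.07 and 0.38 with the median ratio and 0.56 and 0.88 with the actin sum, so that neither direction held under these scalings.

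**Figure D2:**
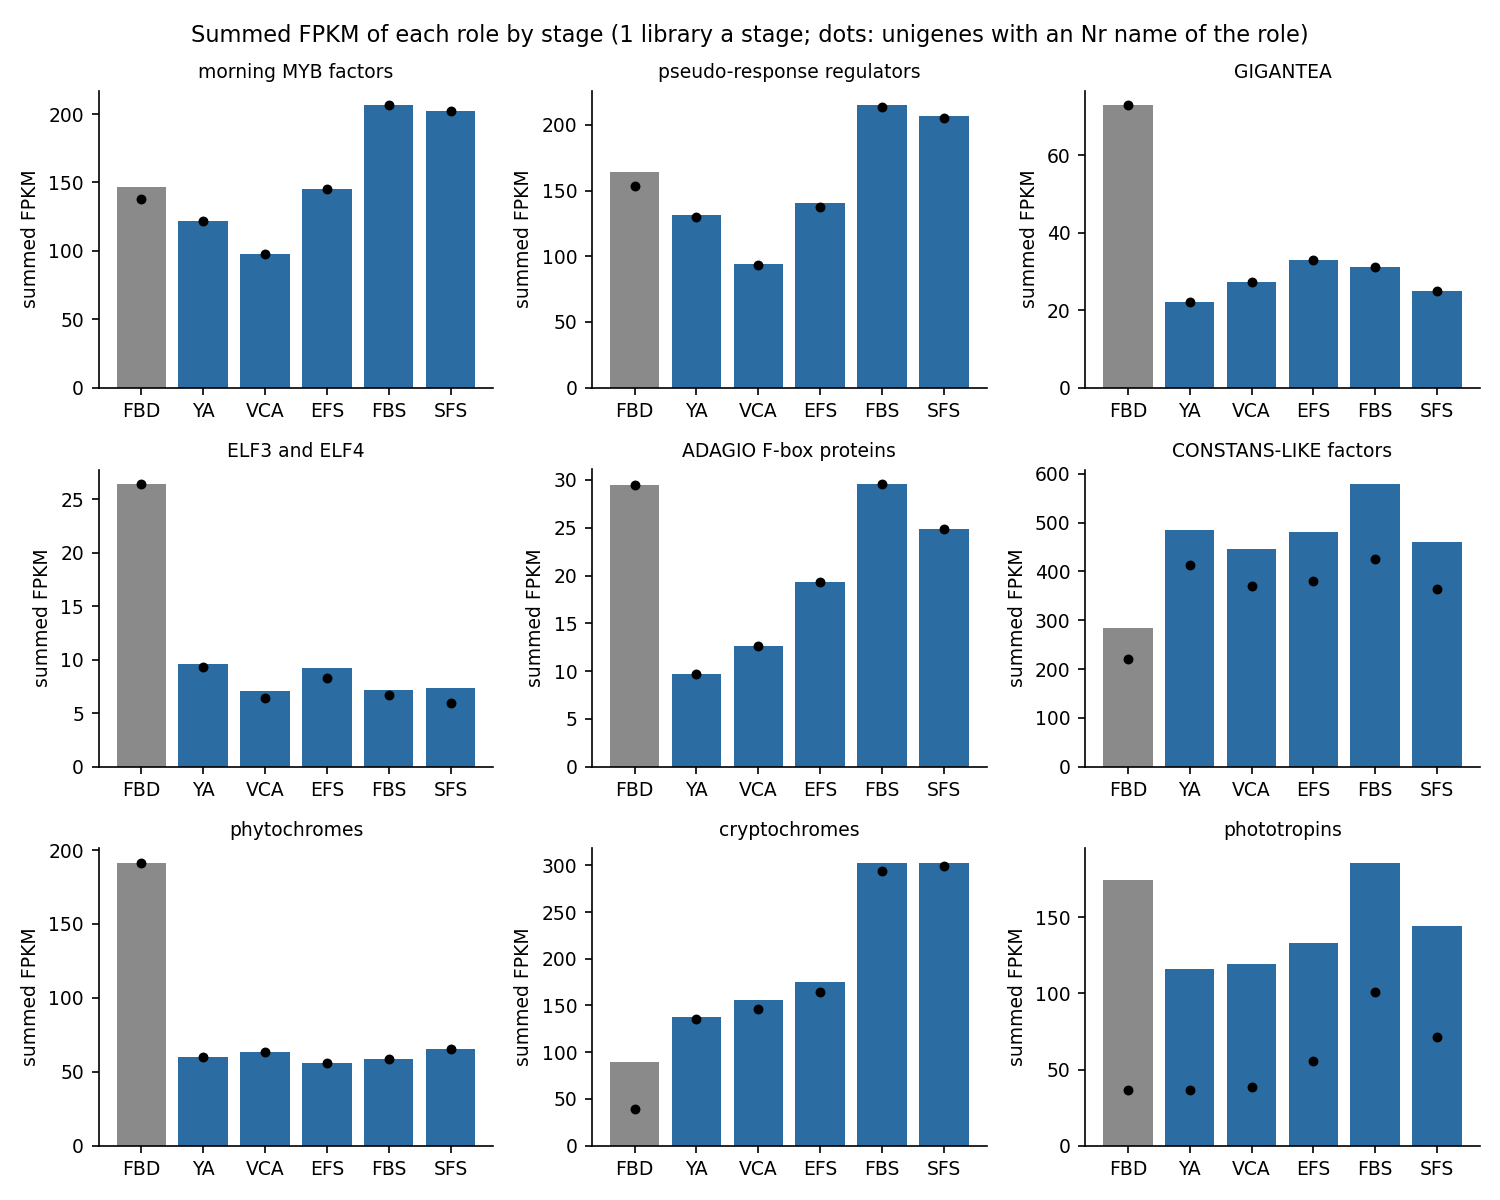
Summed FPKM of each role (y axes, from 0) in each stage, with 1 library a stage; the gray bar is FBD, set apart because it shares few unigenes with the other stages, and dots give the sum over unigenes whose Nr match also has a name of the role. Cryptochromes stood at 302 FPKM in SFS and 138 in YA. For phototropins the dot stood at 36.3 FPKM in YA, where the bar is 116, and at 101 in FBS, where the bar is 186.

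Among the morning MYB factors, the cluster with LHY and CCA1 names, CL3613, was lowest in VCA and EFS. LHY and CCA1 are the repressors at the core of the loop. Its 10 contigs summed to 56.9 FPKM at YA, 18.1 at VCA, 16.6 at EFS, 39.1 at FBS and 54.1 at SFS. The log2 ratio was -1.65 between VCA and YA and 1.23 between FBS and EFS, whereas SFS and YA were close (log2 ratio -0.07). The contigs that made up the sum changed. CL3613.Contig6 (LHY) held 15.1 FPKM in YA and 0.15, 0.28, 0.19 and 0.10 in VCA, EFS, FBS and SFS. CL3613.Contig8, the only contig with the CCA1 name that reached 1 FPKM in these stages, held 19.8 FPKM in YA and between 0.39 and 1.74 later. CL3613.Contig7 (LHY) instead stood at 3.73 FPKM at YA, 1.75 at VCA, 2.29 at EFS, 9.63 at FBS and 33.3 at SFS. In YA and SFS different contigs of the cluster thus carried most of a similar sum.

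REVEILLE proteins are relatives of LHY and CCA1, of which REVEILLE 4, 6 and 8 activate evening genes in Arabidopsis. The cluster CL12390, with the names REVEILLE 4 and REVEILLE 5, stood at 9.79 FPKM at YA, 19.0 at VCA, 56.3 at EFS, 62.8 at FBS and 89.0 at SFS, a log2 ratio of SFS to YA of 3.17. It was the morning MYB cluster with the highest mean. Both of its contigs match ASG4, another name of this family, in Nr. CL12390.Contig2 held 8.90, 10.6, 47.8, 62.8 and 49.4 FPKM from YA to SFS. CL12390.Contig1 held 0.89, 8.42 and 8.48 FPKM in YA, VCA and EFS, was listed at 0 in FBS and held 39.6 FPKM in SFS. This contig was among the strongest differences of both FBS against EFS and SFS against FBS, but the cluster sum stayed under 2-fold in each (log2 ratios 0.16 and 0.50).

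REVEILLE 6, in cluster CL4450, was steadier, at 32.4 FPKM at YA, 40.7 at VCA, 37.3 at EFS, 61.97 at FBS and 51.6 at SFS. Its leading contig, CL4450.Contig1, held 17.1, 14.97, 5.22, 27.6 and 19.5 FPKM over the same stages. REVEILLE 1, which joins the clock to auxin in Arabidopsis, went the other way at the end. Its cluster CL181 held 22.5 FPKM at YA, 19.9 at VCA, 34.2 at EFS, 41.8 at FBS and 6.39 at SFS, with CL181.Contig3 at 18.6, 7.98, 28.3, 13.4 and 5.35 FPKM. The log2 ratio was -2.69 between SFS and FBS and -1.80 between SFS and YA, of which the second shrank to -0.85 with the actin sum. Of the 22 morning MYB unigenes that passed the filter, 13 were higher (59.1%) and 4 lower (18.2%) in FBS than in EFS, with 33.0% and 32.5% among all unigenes. In SFS against FBS, 2 of 22 were higher (9.09%) and 10 lower (45.5%), with 29.1% and 35.8% among all. The sum of the role was nearly the same in both stages, however (log2 ratio -0.03). Among the clusters above, this ratio was 0.50 for CL12390, 0.47 for CL3613, -0.26 for CL4450 and -2.69 for CL181.

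The pseudo-response regulators split into 4 main clusters with different courses. CL6853, named PRR73 in Swiss-Prot and PRR37 in Nr after the rice genes, stood at 48.1 FPKM at YA, 34.8 at VCA, 40.7 at EFS, 77.1 at FBS and 137 at SFS. SFS exceeded YA by a log2 ratio of 1.5. CL6853.Contig1 accounted for this, with 7.44, 16.5, 33.6, 32.8 and 113 FPKM from YA to SFS. CL6853.Contig2 held 40.6, 18.3, 7.09, 44.3 and 23.4 FPKM. The 2 contigs thus differed in course, and only their sum was lowest in VCA.

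CL5217, named PRR95 or APRR5, was highest at full bloom. These are the regulators of the middle of the day. Its 10 contigs summed to 40.6 FPKM at YA, 19.9 at VCA, 53.5 at EFS, 95.8 at FBS and 31.3 at SFS. The log2 ratio was -1.03 between VCA and YA (-0.99 with the median ratio, under 2-fold), 1.42 between EFS and VCA, 0.84 between FBS and EFS and -1.61 between SFS and FBS. CL5217.Contig9 followed the sum, at 11.9, 7.64, 16.1, 27.4 and 6.75 FPKM, as did CL5217.Contig10 at 6.41, 2.57, 8.56, 18.6 and 6.88 FPKM. CL5217.Contig2 stood at 10.3 FPKM in YA, was listed at 0 in VCA and EFS, and held 14.6 FPKM in FBS and 1.39 in SFS. CL5217.Contig5 reached 8.41 FPKM in EFS and was listed at 0 in VCA and FBS.

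TOC1, which Swiss-Prot lists as APRR1 or PRR1, represses the morning genes at night. Its cluster CL4293 stood at 14.4 FPKM at YA, 13.2 at VCA, 24.5 at EFS, 22.9 at FBS and 13.3 at SFS, and no pair of stages compared differed 2-fold. Single contigs did so widely. CL4293.Contig17 held 11.5 FPKM at YA, 0.73 at VCA, 0.29 at EFS, 20.9 at FBS and 4.41 at SFS, while CL4293.Contig21 held 10.9 FPKM in VCA and at most 1.26 elsewhere. CL11821, named APRR2, was the flattest of the 4, at 27.4, 25.2, 16.9, 18.4 and 24.2 FPKM from YA to SFS. APRR2 carries the name of the family but is not counted among the core clock genes of Arabidopsis. Of the 25 unigenes of this role that passed the filter in EFS against VCA, 17 were higher in EFS (68.0%) and 4 lower (16.0%), with 28.0% and 38.3% among all unigenes. In FBS against EFS, 6 of 25 were higher (24.0%) and 12 lower (48.0%), with 33.0% and 32.5% among all, while the sum of the role was higher in FBS (log2 ratio 0.62).

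**Figure D3:**
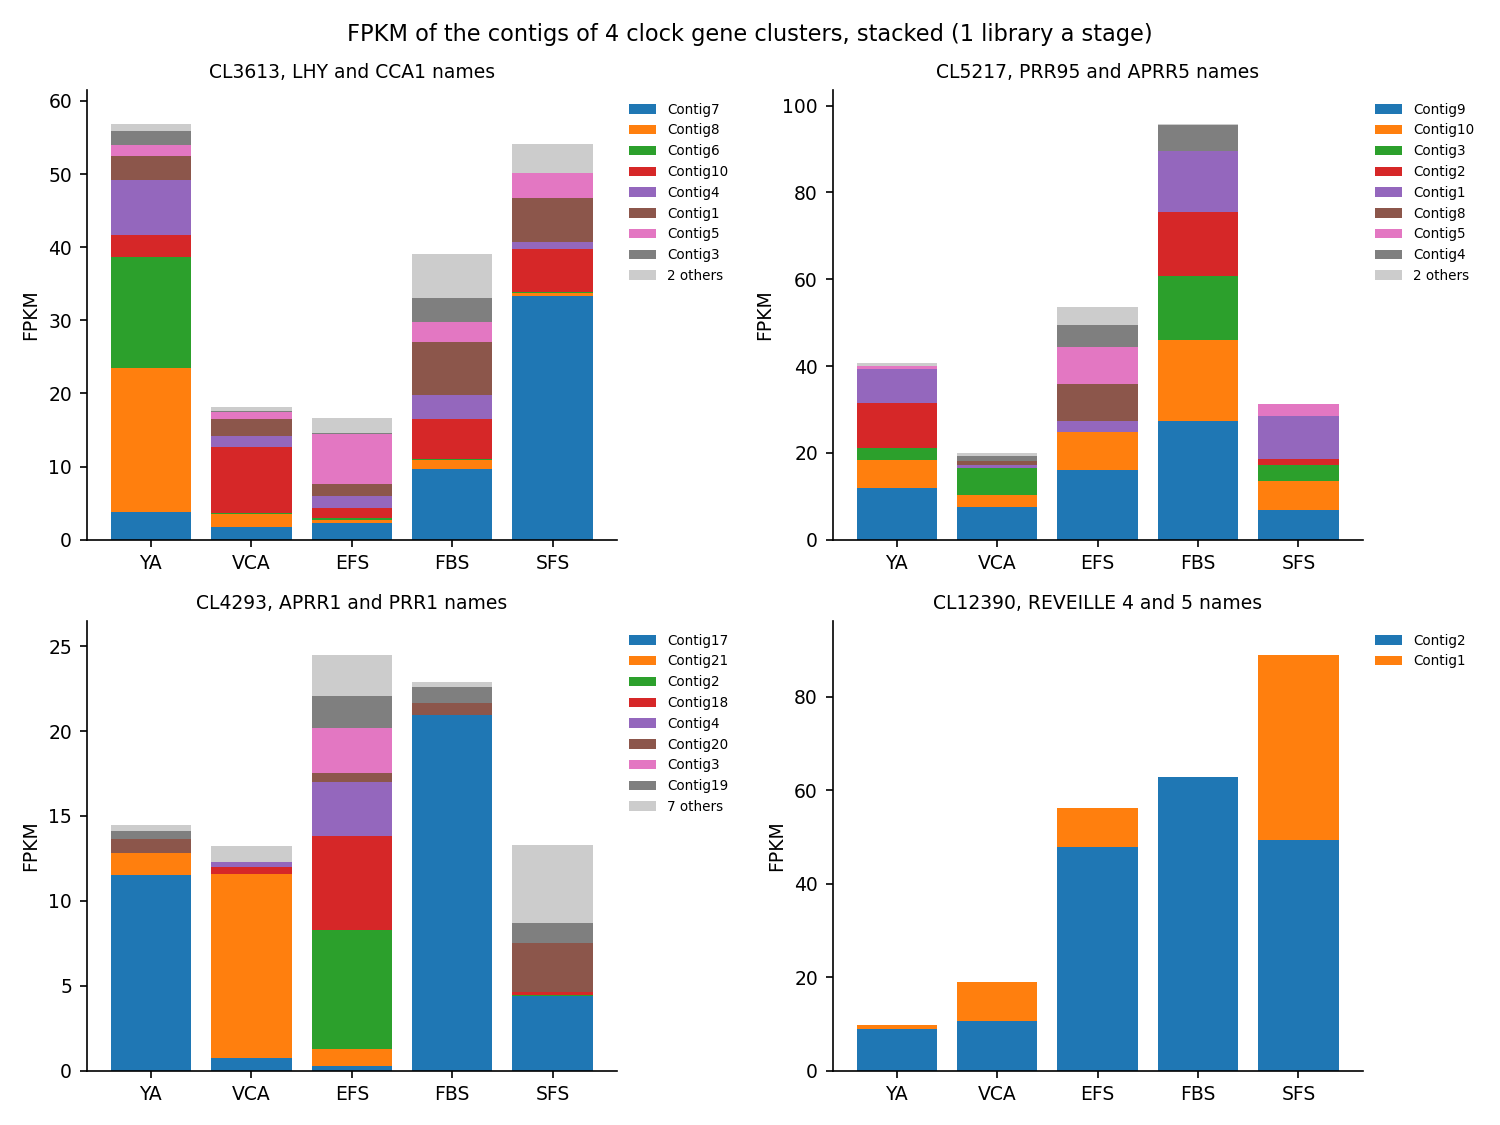
FPKM of the contigs of 4 clock gene clusters, stacked by stage from YA to SFS (y axes in FPKM, from 0; 1 library a stage). The height of CL4293 ranged from 13.2 to 24.5 FPKM while its main contig differed between YA, VCA and EFS, and CL12390 grew to 89.0 FPKM in SFS, against 9.79 FPKM in YA.

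Contigs of a cluster often differed where their sum did not. In VCA against YA, 60 clock and light receptor contigs that passed 2-fold belonged to a cluster, and for 48 of them (80.0%) the cluster sum did not differ 2-fold. The share was 72.5% in EFS against VCA, 84.4% in FBS against EFS and 75.4% in SFS against FBS, and 61.2% in SFS against YA. For all unigenes in clusters it was 61.4%, 51.2%, 53.9%, 54.5% and 37.5% in the same order. Sums over a cluster are therefore given first for the other roles. The sums printed for a cluster cover its contigs with a name of the search, and contigs without one can add to them, as CL6879 shows with 15.98 FPKM in SFS over all its contigs and 9.06 over those with the name.

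GIGANTEA was carried by 4 unigenes in these stages, none of them in a cluster. Unigene20772 stood at 1.49 FPKM at YA, 6.87 at VCA, 14.96 at EFS, 11.8 at FBS and 9.67 at SFS. Unigene7861 held 0.45 FPKM in YA, 8.26 in VCA, 10.5 in FBS and 9.09 in SFS and was listed at 0 in EFS. The other pair was highest in YA. Unigene73551 held 11.45 FPKM at YA, 8.06 at VCA, 10.02 at EFS, 5.46 at FBS and 4.36 at SFS, and Unigene73552 held 8.66, 3.94, 7.82, 3.22 and 1.91 FPKM. As sums, Unigene20772 with Unigene7861 were higher in SFS than in YA by a log2 ratio of 3.21. Unigene73551 with Unigene73552 were lower by -1.67 (under 2-fold for Unigene73551 with the median ratio and the actin sum). The actin sum adds 0.96 to such a ratio, which brings the sum of this second pair under 2-fold as well. The pairs were formed from these same values, so their opposite directions follow from the grouping. The role as a whole was lowest in YA, at 22.1 FPKM, and highest in EFS, at 32.8 FPKM. Whether they are parts or alleles of 1 gene cannot be told from the table.

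ELF3, a scaffold of the evening complex, was low. CL28628.Contig1 held 7.81 FPKM at YA, 5.74 at VCA, 6.05 at EFS, 5.55 at FBS and 4.92 at SFS, and no stage differed 2-fold from another. Unigene10542 held 1.49, 0.62, 2.29, 1.12 and 1.0 FPKM. Unigene5330, at 0.35 to 1.10 FPKM, had an Nr match to a hydroxyproline-rich glycoprotein instead of ELF3. Both ELF4 unigenes were listed at 0 from YA to SFS. The ADAGIO unigene, Unigene30706, matched ADAGIO 1 (ZEITLUPE), which in Arabidopsis targets TOC1 and PRR5 for breakdown. No 2 consecutive stages differed 2-fold.

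CONSTANS-LIKE factors were the most abundant role, at 485 FPKM at YA, 446 at VCA, 480.1 at EFS, 580 at FBS and 460.0 at SFS. They are B-box zinc finger proteins, of which only some act on flowering time. CL11691.Contig2 (CONSTANS-LIKE 4) had the highest mean of all 312 unigenes and was nearly level, at 144 FPKM at YA, 157 at VCA, 139 at EFS, 155 at FBS and 182 at SFS. CL29343.Contig1 (CONSTANS-LIKE 2) held 93.5, 57.5, 94.0, 113 and 64.9 FPKM, with no 2-fold difference between consecutive stages. A second CONSTANS-LIKE 2 cluster, CL14992, held 49.99, 35.2, 51.6, 53.6 and 48.1 FPKM, although CL14992.Contig1 was listed at 0 in YA and EFS and held 16.0 FPKM in VCA, 3.15 in FBS and 10.6 in SFS. Unigene11528 (CONSTANS-LIKE 1) stood at 39.1, 32.2, 71.3, 116 and 54.3 FPKM from YA to SFS, but its Nr match is the B-box zinc finger protein 32, so that the name is uncertain. Unigene807 (CONSTANS-LIKE 13) held 24.4, 39.3, 41.5, 40.5 and 19.9 FPKM, and its SFS value was 2-fold below that of FBS (log2 ratio -1.02, -0.84 with the median ratio).

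Among the cluster sums of the role that reached 5 FPKM, the largest log2 ratio of SFS to YA lay in the CONSTANS-LIKE 9 and 10 names. The cluster CL15370, a CONSTANS-LIKE 11 in Nr, stood at 54.6 FPKM at YA and 32.2 at VCA, against 1.68 FPKM at EFS, 0.73 at FBS and 1.10 at SFS. The log2 ratio was -4.18 between EFS and VCA and -5.51 between SFS and YA. All 3 contigs shared it, since CL15370.Contig1 held 26.4 FPKM in YA, 14 in VCA and at most 0.73 later, and CL15370.Contig3 22.3, 10.6 and at most 0.77. CL15370.Contig2 held 5.89 FPKM in YA, 7.60 in VCA, 0.43 in EFS and was listed at 0 in FBS and SFS. Each contig was thus under 1 FPKM from EFS on, while in VCA, against YA, CL15370.Contig2 was higher and the sum and the other contigs were lower. A second cluster of the same names, CL13311, ran in the opposite direction, at 9.31, 10.7, 14.7, 20.9 and 26.7 FPKM from YA to SFS (log2 ratio of SFS to YA 1.51). CL17023 (CONSTANS-LIKE 10) peaked at 27.4 FPKM in FBS, with 9.35 FPKM in YA and 11.7 in SFS. CL19636 (CONSTANS-LIKE 16) was lower in SFS, at 5.13 FPKM, than in YA, at 11.9 FPKM (log2 ratio -1.20), and so was CL29961 (CONSTANS-LIKE 15) at 7.02 and 15.1 FPKM (-1.09). Both were under 2-fold with the median ratio and the actin sum.

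**Figure D4:**
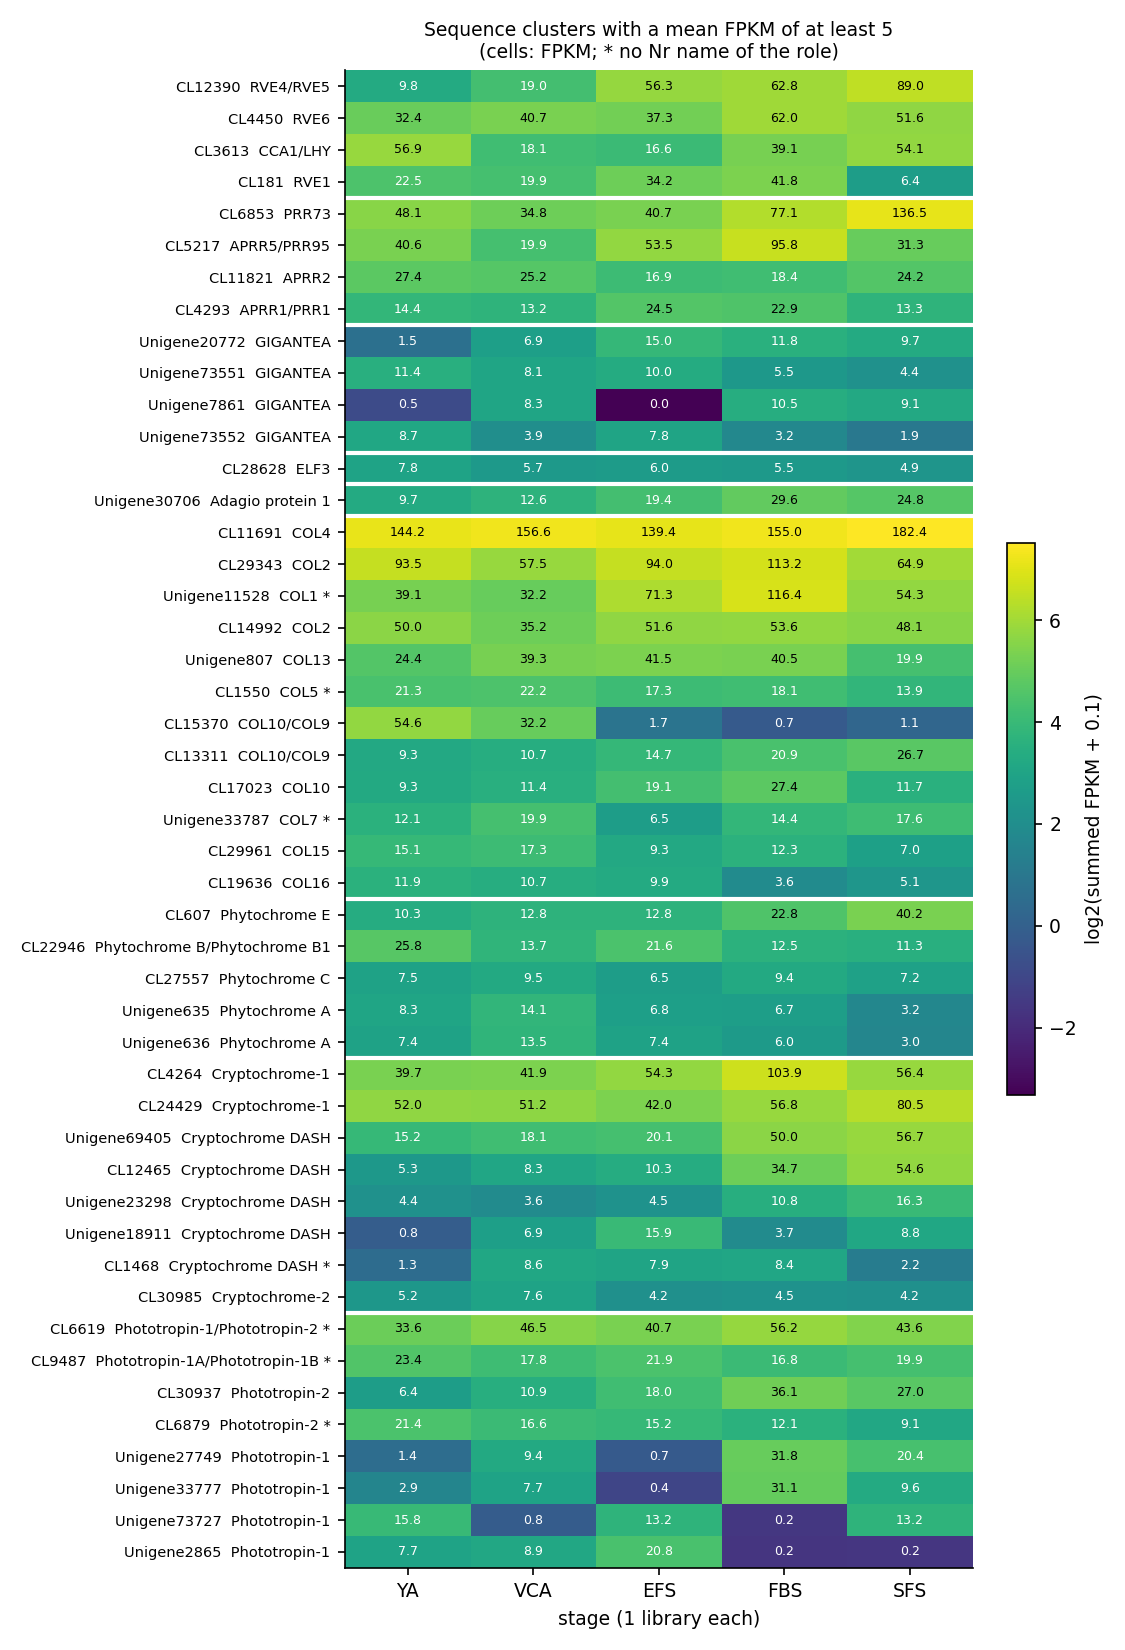
FPKM of the clock and light receptor clusters and single unigenes with a mean of at least 5 FPKM over YA to SFS (rows, by role; columns are stages, 1 library each), with color as log2(summed FPKM + 0.1). CL15370 stood at 54.6 FPKM in YA and at 1.10 FPKM in SFS, whereas CL12390, CL6853, CL607 and CL12465 had their highest value in SFS; an asterisk marks rows without an Nr name of the role.

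The phytochrome sum was nearly level, at 59.7, 63.7, 56.0, 58.4 and 65.5 FPKM from YA to SFS, but its members moved apart. Phytochrome E in cluster CL607 stood at 10.3 FPKM at YA, 12.8 at VCA, 12.8 at EFS, 22.8 at FBS and 40.2 at SFS, and the log2 ratio of SFS to YA was 1.95. Phytochrome A, the receptor for far-red light that is degraded in the light, was carried by Unigene635 and Unigene636. They held 8.27 and 7.42 FPKM at YA, 14.1 and 13.5 at VCA, 6.84 and 7.40 at EFS, 6.73 and 5.97 at FBS and 3.16 and 3.04 at SFS. The sum of both was highest in VCA, at 27.5 FPKM, and lowest in SFS, at 6.20 FPKM. The log2 ratio of SFS to YA was -1.33. The 2 unigenes kept to the same course in all 5 stages.

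Phytochrome B, the main red light receptor of the open plant, was in cluster CL22946. The cluster held 25.8 FPKM at YA, 13.7 at VCA, 21.6 at EFS, 12.5 at FBS and 11.3 at SFS (log2 ratio of SFS to YA -1.19). CL22946.Contig2 held most of this in YA, at 20.5 FPKM, and 4.30, 9.04, 3.27 and 1.79 FPKM later. CL22946.Contig3 stood at 1.75 FPKM in YA and between 7.81 and 8.69 FPKM from VCA to SFS. With the actin sum the log2 ratios of SFS to YA shrank to -0.42 for Unigene635, -0.32 for Unigene636 and -0.23 for CL22946, and with the median ratio to -0.91, -0.81 and -0.73, all under 2-fold, while that of phytochrome E grew under both. Phytochrome C (CL27557) was level, at 7.45 FPKM at YA, 9.48 at VCA, 6.5 at EFS, 9.37 at FBS and 7.21 at SFS.

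The cryptochrome sum had a larger ratio of SFS to YA than those of phytochromes and phototropins, and most of the difference lay in the name cryptochrome DASH. DASH cryptochromes are chloroplast and mitochondrial relatives of photolyase that bind DNA, and their part in light signaling is less known than that of cryptochromes 1 and 2. The 29 unigenes with this name summed to 40.1 FPKM at YA, 54.2 at VCA, 72.0 at EFS, 137 at FBS and 160.5 at SFS (log2 ratio of SFS to YA 2.0). The 16 with a cryptochrome name in Nr gave 38.7, 45.6, 64.1, 129 and 158 FPKM. Unigene69405 held 15.25, 18.1, 20.1, 49.95 and 56.7 FPKM from YA to SFS. CL12465 held 5.34, 8.34, 10.3, 34.7 and 54.6 FPKM, and its contigs alternated. CL12465.Contig4 held 0.91, 4.62, 3.95, 25.6 and 0.20 FPKM, and CL12465.Contig1 was listed at 0 in YA and held 3.72, 6.26, 7.58 and 48.6 FPKM from VCA to SFS. Unigene23298 held 4.36, 3.63, 4.49, 10.8 and 16.3 FPKM from YA to SFS. Each of these 3 had its highest value in SFS.

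Cryptochrome 1, which acts on growth in blue light and on the clock, was led by 2 clusters. CL24429.Contig1 held 51.95 FPKM at YA, 51.2 at VCA, 41.98 at EFS, 56.8 at FBS and 80.5 at SFS, with no 2-fold difference. CL4264, with 20 contigs, stood at 39.7, 41.9, 54.3, 104 and 56.4 FPKM and was thus highest in FBS. CL4264.Contig19 held 3.93, 5.17, 7.04, 22.8 and 9.35 FPKM, and CL4264.Contig1 was listed at 0 in YA and SFS and held 3.34, 2.71 and 6.86 FPKM between. In CL30985, 1 of 11 contigs carried the name cryptochrome 2 in Swiss-Prot, and its Nr match is a cryptochrome 1. Cryptochrome 2 stabilizes CONSTANS in Arabidopsis. That contig held 5.21, 7.60, 4.18, 4.51 and 4.24 FPKM from YA to SFS, and all 11 contigs together 5.31, 7.66, 4.38, 4.51 and 17.3 FPKM, so that contigs of CL30985 without the name made up most of its level in SFS. Of the 35 cryptochrome unigenes that passed the filter in FBS against EFS, 20 were higher in FBS (57.1%) and 6 lower (17.1%), with 33.0% and 32.5% among all unigenes. In SFS against FBS, 8 of 36 were higher (22.2%) and 18 lower (50.0%), with 29.1% and 35.8% among all, although the sum of the role was the same in both stages within 1 FPKM.

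Among the phototropins, the names had to be read with care. Of the 42 unigenes, 24 had no phototropin in Nr. Those of CL6619, CL9487 and CL6879, which led this group, matched a protein kinase called tricorner, a serine/threonine kinase 38-like protein and uncharacterized proteins, all with a kinase domain. They share the kinase part of phototropins, and summed to 79.7 FPKM at YA, 81.0 at VCA, 77.8 at EFS, 85.2 at FBS and 72.6 at SFS. Within CL6619, CL6619.Contig1 held 14.4, 12.9, 20.5, 6.65 and 7.52 FPKM, CL6619.Contig7 held 16.1 FPKM in VCA and 16.9 in SFS but 0.01 in EFS and a listed 0 in FBS, and CL6619.Contig9 held 36.95 FPKM in FBS and 7.60 in SFS. Within CL9487, CL9487.Contig7 was listed at 0 in VCA and FBS and held 15.9 FPKM in EFS, and CL9487.Contig3 held 6.56 FPKM in VCA and 1.80 in FBS only. The group was thus level as a sum.

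The 18 unigenes with a phototropin in Nr summed to 36.3 FPKM at YA, 38.7 at VCA, 55.5 at EFS, 101 at FBS and 71.5 at SFS (log2 ratio of SFS to YA 0.98). Phototropin 2, which steers chloroplasts away from strong light, was led by CL30937 at 6.42, 10.9, 18.0, 36.1 and 26.97 FPKM, a log2 ratio of SFS to YA of 2.05. Phototropin 1, the receptor of weak blue light for bending, was carried by 4 unigenes with different courses. Unigene27749 held 1.36 FPKM at YA, 9.40 at VCA, 0.74 at EFS, 31.8 at FBS and 20.4 at SFS, and Unigene33777 held 2.93, 7.70, 0.38, 31.1 and 9.63 FPKM. Unigene73727 held 15.8, 0.79, 13.2, 0.24 and 13.2 FPKM, and Unigene2865 held 7.71, 8.91, 20.8, 0.22 and 0.23 FPKM. The first pair was low in YA and EFS, where the second was high, and the second was near 0 in FBS, where the first was highest. In VCA and SFS the pairs did not alternate in this way. There the second pair was split, with Unigene73727 at 0.79 and 13.2 FPKM and Unigene2865 at 8.91 and 0.23. The first pair held 9.40 and 7.70 FPKM in VCA and 20.4 and 9.63 in SFS. All phototropin 1 unigenes with the Nr name summed to 27.8, 26.8, 35.15, 63.4 and 43.5 FPKM from YA to SFS.

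The 9 unigenes outside the roles are named here because the words of the search caught them. Unigene21072, a phytochrome A-associated F-box protein (EID1 in Arabidopsis, which dampens phytochrome A signaling), held 43.6 FPKM at YA, 50.7 at VCA, 40.6 at EFS, 10.7 at FBS and 7.08 at SFS. Its log2 ratio was -1.91 between FBS and EFS and -2.61 between SFS and YA. It shared the lower level in SFS with phytochrome A itself. The others were cyclin-A1-3 (Unigene17230, at most 5.29 FPKM, in VCA, with CL24706.Contig1 and CL24706.Contig2 at 16.4 and 7.12 FPKM in FBD), the auxin synthesis enzymes YUCCA10 and YUCCA11 (Unigene1684, Unigene60991 and Unigene137260, and Unigene23544 at up to 12.0 FPKM, in EFS) and a second F-box unigene, Unigene117333, found in FBD.

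A further 392 unigenes carried names of partners of these genes. Of the 159 that passed the filter in SFS against YA, 54 were higher (34.0%) and 41 lower (25.8%), which may be read beside 29.1% and 46.8% of all unigenes. The factors downstream of the receptors, PIF and HY5, had 8 of 16 higher and 1 lower. Names of PIF1, a repressor of light responses that phytochrome removes, summed to 28.3 FPKM at YA, 31.9 at VCA, 60.7 at EFS, 134 at FBS and 187 at SFS. HY5, the factor that promotes light responses, summed to 60.9, 66.4, 92.6, 109 and 153 FPKM, and HY5-like to 2.81, 7.25, 17.0, 39.65 and 88.6 FPKM. The PIF relative UNE10 was listed at 0 in YA and held 25.6 FPKM in SFS. PIF3, by contrast, summed to 4.52 FPKM in SFS, against 5.5 FPKM in YA, and PIF4 to at most 0.04 FPKM from YA to SFS. COP1, the ubiquitin ligase that marks HY5 for breakdown, summed to 86.0, 73.0, 58.4, 125 and 135 FPKM from YA to SFS, and root phototropism protein 3, which acts with phototropin 1, to 13.7, 10.7, 37.1, 63.2 and 69.6 FPKM. The phototropin partners did not share this course. Root phototropism protein 2 held 46.5 FPKM in YA and 34.2 in SFS. Of the 14 that passed the filter, 4 were higher (28.6%) and 2 lower (14.3%) in SFS than in YA.

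The 67 clock partner unigenes include many casein kinase II subunits, among them 10 unigenes of beta, 7 of beta-3 and 6 of the chloroplastic alpha. The counts below were not split between these and the other names. Of the clock partner unigenes, 2 of 25 were higher in SFS than in YA (8.0%) and 8 lower (32.0%), with 29.1% and 46.8% among all unigenes. Of 30 clock partner unigenes that passed the filter in SFS against FBS, 1 was higher and 13 were lower (all unigenes 29.1% and 35.8%). LUX, the DNA-binding member of the evening complex, summed to 11.1 FPKM at YA, 15.7 at VCA, 21.2 at EFS, 26.3 at FBS and 4.53 at SFS. PCL1, another name of that factor, summed to 37.5, 27.4, 21.4, 17.6 and 14 FPKM. ELF4-LIKE 4, a relative of ELF4, summed to 35.4, 20.01, 26.9, 37.9 and 53.1 FPKM from YA to SFS and was thus highest in SFS. Cyclic dof factors repress CONSTANS, and HEADING DATE 3A is the rice counterpart of the flowering signal FT. The group with these names and zinc finger protein HD1 had 6 of 8 unigenes lower in SFS than in FBS and 1 higher, with 35.8% lower and 29.1% higher among all. HEADING DATE 3A summed to 6.69, 14.6, 7.64, 9.32 and 3.35 FPKM from YA to SFS. Cyclic dof factor 3 summed to 57.5 FPKM at YA, 60.4 at VCA, 91.0 at EFS, 57.6 at FBS and 19.3 at SFS. The 2 unigenes named zinc finger protein HD1 summed to 4.18 FPKM in FBD and were listed at 0 from YA to SFS. No unigene of this list carried the name CONSTANS itself in Swiss-Prot. The paper reports CO factors in its transcriptome, so this does not show that CONSTANS is absent. FAR-RED ELONGATED HYPOCOTYL 3, which acts for phytochrome A, summed to 14.5, 11.6, 11.3, 3.15 and 4.0 FPKM from YA to SFS.

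The FBD library stood apart. Of the 268 unigenes that reached an FPKM of 1 either in FBD or as a mean over YA to SFS, 115 (42.9%) were 20-fold or more higher in FBD and 149 (55.6%) were 20-fold or more lower. Only 4 lay between. Of all unigenes, 52.1% were higher and 46.4% lower. The library therefore held other unigenes under the same names, and ratios of FBD to another stage are not given. A level of at least 1 FPKM on both sides was found for 33 of the 47 names. GIGANTEA, for example, summed to 73.0 FPKM in FBD, with CL3628.Contig1 alone at 44.1 FPKM and at most 0.04 elsewhere. The FBD member with the highest level was CL7184.Contig2 (phytochrome A1) at 67.5 FPKM, which held at most 0.07 in the other stages. CL3989.Contig2 (CONSTANS-LIKE 4) held 57.3 FPKM in FBD, CL6619.Contig6 (phototropin 1 by Swiss-Prot only) 36.4, CL10513.Contig1 (LHY) 29.1, CL4264.Contig13 (cryptochrome 1) 28.98, CL19913.Contig2 (PRR73) 21.5 and CL29463.Contig1 (ADAGIO 1) 12.9 FPKM.

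Some names were found on 1 side only. The 2 ELF4 unigenes, led by Unigene137240 at 8.44 FPKM, and the 8 REVEILLE 8 unigenes, with 28.2 FPKM in all, reached 1 FPKM only in FBD. REVEILLE 4 and CONSTANS-LIKE 1, 5 and 10 reached it only from YA to SFS. Of the 49 clusters with at least 2 of these unigenes, 4 held members on both sides. In CL22946, for example, CL22946.Contig5 (phytochrome B) held 20.1 FPKM in FBD and at most 0.05 in the other stages, while the phytochrome B contigs named above were at or under 0.08 FPKM in FBD. Summed over roles, FBD held 147 FPKM of morning MYB factors, 164 of pseudo-response regulators, 26.5 of ELF3 and ELF4, 29.5 of ADAGIO, 284 of CONSTANS-LIKE factors, 191 of phytochromes, 89.1 of cryptochromes and 175 of phototropins. The labels give the same species for FBD, but whether its sequences come from the same kind of plant could not be settled from the table, so these sums are not ranked against those of the other stages.

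**Figure D5:**
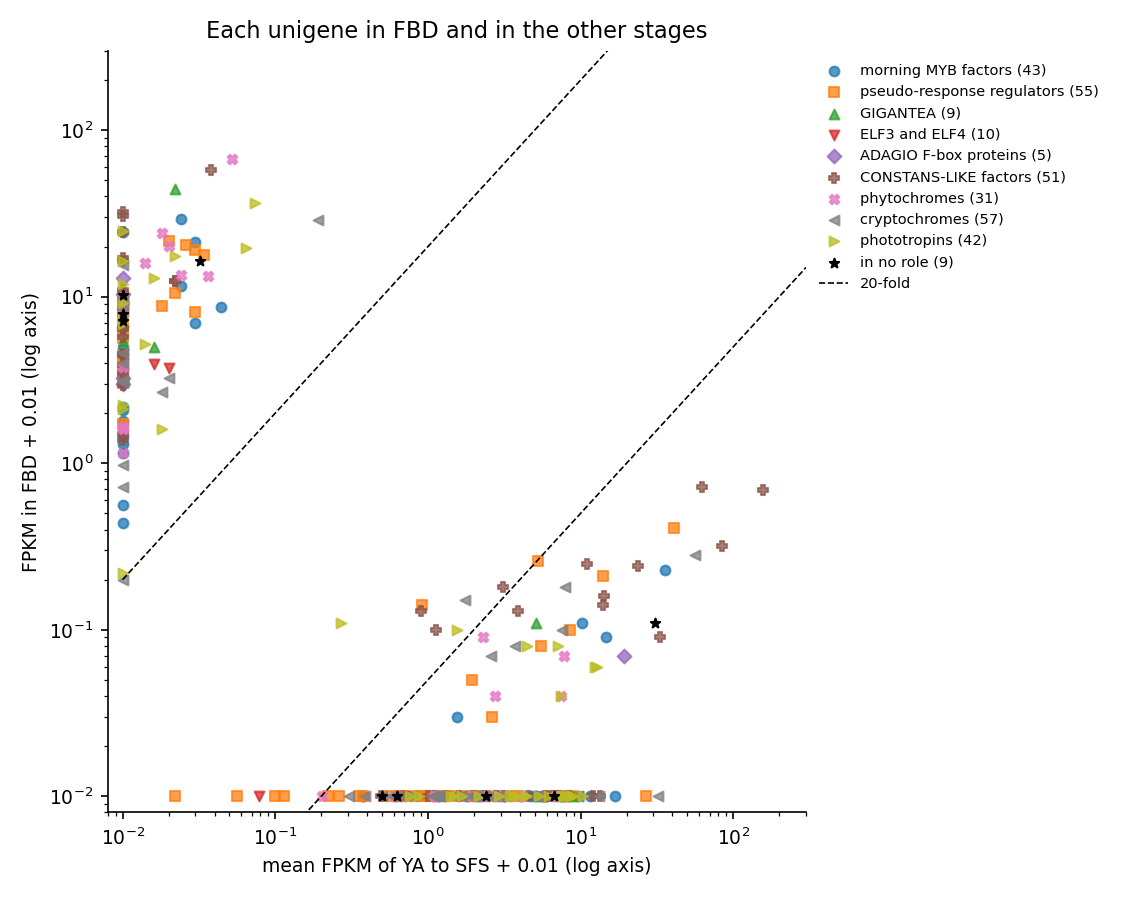
FPKM in FBD (y axis) against the mean FPKM of YA to SFS (x axis), both as FPKM + 0.01 on log axes, for each of the 312 unigenes, marked by role; dashed lines mark a 20-fold ratio. The unigenes lie in 2 groups along the axes, 115 on the FBD side and 149 on the other, with 4 between them.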

How the data were processed

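Total RNA was extracted with TRIzol and sequenced on an Illumina platform, 1 library a stage. From the reads, unigenes were obtained by Trinity assembly and clustering, and the authors deposited FPKM from RSEM, to 2 decimals, with database matches. The sources used here give no versions, read numbers or trimming, so the depth is unknown. The table held 190353 unigenes, and 2 emptied lines were not used here.

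Ratios were calculated as log2((FPKM + 0.1) of the later stage over (FPKM + 0.1) of the earlier), over unigenes that reached FPKM 1 in either library, and called at 2-fold. No p-value was calculated. FBD was set against the mean of YA to SFS at 20-fold. Unigenes were named by this rule: the 4 with the highest mean in each role, the 2 with the strongest increase and decrease in each consecutive pair (at least 5 FPKM), the highest in FBD of each role, and all in no role. The members and lists were chosen with earlier results of these data known. The use of Nr names was added after the values were seen. Steps were tested on simulated data. Tables were handled with pandas 2.3.3 and numpy 2.4.6 in Python 3.11.15, with scipy 1.17.1, and plotted with matplotlib 3.10.9. No sequences were used here.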

Additional observations from a re-analysis of the deposited data

How the results depend on the processing

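No paired analysis was possible because each stage has 1 library. For VCA against YA, EFS against VCA, FBS against EFS, SFS against FBS and SFS against YA in this order, 77, 88, 99, 80 and 110 clock and light receptor unigenes differed 2-fold. With a filter at 5 FPKM these were 42, 45, 61, 50 and 61, over fewer unigenes. Their shares were then 52.5%, 54.9%, 62.9%, 53.8% and 67.8%, with 41.5%, 51.0%, 49.8%, 48.5% and 65.8% among all unigenes. At 1 FPKM they were 56.6%, 61.1%, 64.3%, 54.1% and 72.4%, with 61.8%, 66.2%, 65.6%, 64.8% and 75.9% among all. The share thus lay above that of all unigenes at 5 FPKM and below it at 1 FPKM. With the contigs of a cluster summed the counts were 20, 25, 29, 22 and 39. The share that differed was lower too, at 32.8% to 60.9% of clusters against 54.1% to 72.4% of unigenes at 1 FPKM. Pseudocounts of 1 and 0.01, no filter, the same total, the median ratio, the actin sum, an E value of at most 1e-50 and an Nr name of the role kept each count within 1.5 times, as did 5-fold in place of 20-fold for FBD. The log2 ratio of SFS to YA of the role sums moved with the actin sum to 1.69 for morning MYB factors, 1.61 for pseudo-response regulators, 1.14 for GIGANTEA, 0.56 for ELF3 and ELF4, 2.30 for ADAGIO, 0.88 for CONSTANS-LIKE factors, 1.09 for phytochromes, 2.09 for cryptochromes and 1.27 for phototropins. This follows from the actin sum itself, which adds 0.96 to every such ratio, as the median ratio adds 0.46. The phototropin value was 0.98 with an Nr name of the role. With this filter at 5 FPKM, 72 unigenes were higher and 71 lower in FBD, against 115 and 149 at 1 FPKM. The counts could not be set against any spread, the reads behind an FPKM are unknown, and a contig listed at 0 may share its reads with another contig of its cluster.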

Other observations

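The UV-B receptor UVR8 is the light receptor name with the most unigenes in the table outside the set above. Nr names were checked only for the roles above, so not every unigene with this name need be the receptor. The 84 unigenes with the name summed to 306 FPKM at YA, 309 at VCA, 284 at EFS, 243 at FBS and 252 at SFS. Of the 40 that passed the filter, 13 were 2-fold or more higher in SFS than in YA, while 15 were lower. These are 32.5% and 37.5%, with 29.1% and 46.8% among all unigenes. B-box factors with the name salt tolerance protein, which modulate HY5 in Arabidopsis, summed to 62.9, 54.3, 47.5, 58.2 and 146 FPKM from YA to SFS. The other B-box names did not share this difference. Those like At1g75540 summed to 13.98 FPKM in YA and 7.74 in SFS, and those like At1g78600 to 81.5 and 87.4 FPKM. Of the 8 B-box unigenes that passed the filter, 3 were higher in SFS than in YA (37.5%) and 2 lower (25.0%), with 29.1% and 46.8% among all. Casein kinase II subunit beta, which in Arabidopsis phosphorylates CCA1 as part of its kinase, summed to 89.0, 94.0, 82.2, 107 and 71.2 FPKM.

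The best Nr match of a clock or light receptor unigene was in Nelumbo nucifera for 53.0% of 115 on the FBD side and for 44.9% of 147 on the side of YA to SFS. For all unigenes with an Nr match the shares were 50.7% and 46.5%.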
